A study of Mus musculus with 9 samples.

Results

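The motile cilium of ependymal cells is built on the axoneme, a ring of doublet microtubules around a central pair, and 73 genes of this structure or of its assembly were measured among the 14477 genes of the table. They were chosen by a rule on gene symbols, set with earlier results of these data known. The rule took the Cfap, Dnah, Dnaic, Dnaaf, Rsph and Drc families, the dynein light chain genes Dnali1, Dnal1 and Dnal4, the tektins, and the Spag6, Spag16 and Spag17 genes. It took 11 further genes by name (Ccdc39, Ccdc40, Ccdc153, Hydin, Enkur, Meig1, Ak7, Mcidas, Ccno, Pifo and Tmem212). In the GENCODE M21 annotation 88 symbols met this rule, and 15 of them had no row in the table. Those 15 were Cfap73, Cfap97d1, Cfap97d2, Cfap99, Ccno, Dnah2os, Dnah7c, Dnah8, Dnah14, Dnah17, Mcidas, Rsph6a, Spag6, Spag17os and Tekt3.

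In a motile cilium, the dynein arms on each doublet pull on the neighbouring doublet, and the radial spokes, the central pair and the nexin-dynein regulatory complex shape that sliding into a beat. The heavy motor complexes are put together in the cytoplasm by dedicated assembly factors and carried into the cilium by intraflagellar transport. In the adult brain, tufts of such cilia stand on the ependymal cells that line the lateral ventricle beside the subventricular zone (SVZ), whereas neural precursors of the SVZ and of the dentate gyrus of the hippocampus (DG) carry a single primary cilium, which lacks the dynein arms.

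RNA was sequenced from cells sorted for green fluorescence out of the DG (5 libraries) or the SVZ (4 libraries) of adult mice of the strain B6.Cg-Tg(Nes-EGFP)1Yamm, in which regulatory sequence of Nestin drives the reporter in precursors and in any other cell where that sequence is active. The mice of both tissues were untreated and kept in standard housing, and neither ages nor the number of animals behind a library were given. Because nothing states that the libraries of a tissue came from separate animals, the p-values rest on the spread between libraries alone, which may be technical. Recovered totals ran from 31126803 to 41164044 reads, so that 3 reads were worth 0.0729 to 0.0964 CPM, the usual unit of reads scaled to library size, and values are the deposited log2 CPM. Intervals were not computed, since counting error alone does not cover the amplification of the cDNA. The precursor genes Nes and Sox2 were detected throughout: Nes lay between 5.89 and 6.99 log2 CPM in DG and between 6.87 and 7.61 in SVZ, and Sox2 between 4.88 and 5.26 in DG and between 6.09 and 6.40 in SVZ. Dlx2, a homeobox gene of the SVZ lineage, had a median of -0.54 in DG and 6.42 in SVZ, with a highest DG value of 3.40. Eomes, a gene of DG intermediate progenitors, had medians of 5.46 and 2.56, and Gfap had medians of 9.72 and 5.62. Prox1 did not separate the tissues, at 7.65 to 8.12 in DG and 7.50 to 8.04 in SVZ, and was not called. A few libraries stood apart from their group: DG 2 in neuroblast genes (list mean 8.38, against 7.07 to 7.13 in the other DG libraries), SVZ 1 in endothelial genes (1.71, against -0.58 to -0.39) and SVZ 4 in the axoneme genes themselves.

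Most of the axoneme genes were higher in SVZ. At an adjusted p under 0.05 (limma, Benjamini-Hochberg over all genes), 57 of 73 were higher in SVZ, where 33.7% of all genes were called in that direction. Another 3 were higher in DG, where 32.9% of all genes were, and 13 did not pass the test; in either direction 66.6% of all genes were called. The median difference, DG minus SVZ, was -1.66 on the log2 scale, 3.17-fold higher in SVZ, with single genes from -4.65 to 2.02. Over all genes the median was -0.075. Without DG 2, or without SVZ 1, 53 of the 73 were higher in SVZ and 3 in DG, and without SVZ 4 these counts were 58 and 2. Every DG library lay below every SVZ library for 50 of the genes (28.3% of all genes), all DG libraries stood above SVZ for 2 (29.7% of all genes), and the tissues overlapped for 21. Of the 57 genes, 50 differed at least 2-fold and 24 at least 8-fold. Of all 14477 genes, 1792 were called higher in SVZ by at least 2-fold and 213 (1.47%) by at least 8-fold. A prior count of 1 read is part of every value, and each difference is between means of log2 values. Folds of genes with few reads are therefore uncertain.

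**Figure D1:**
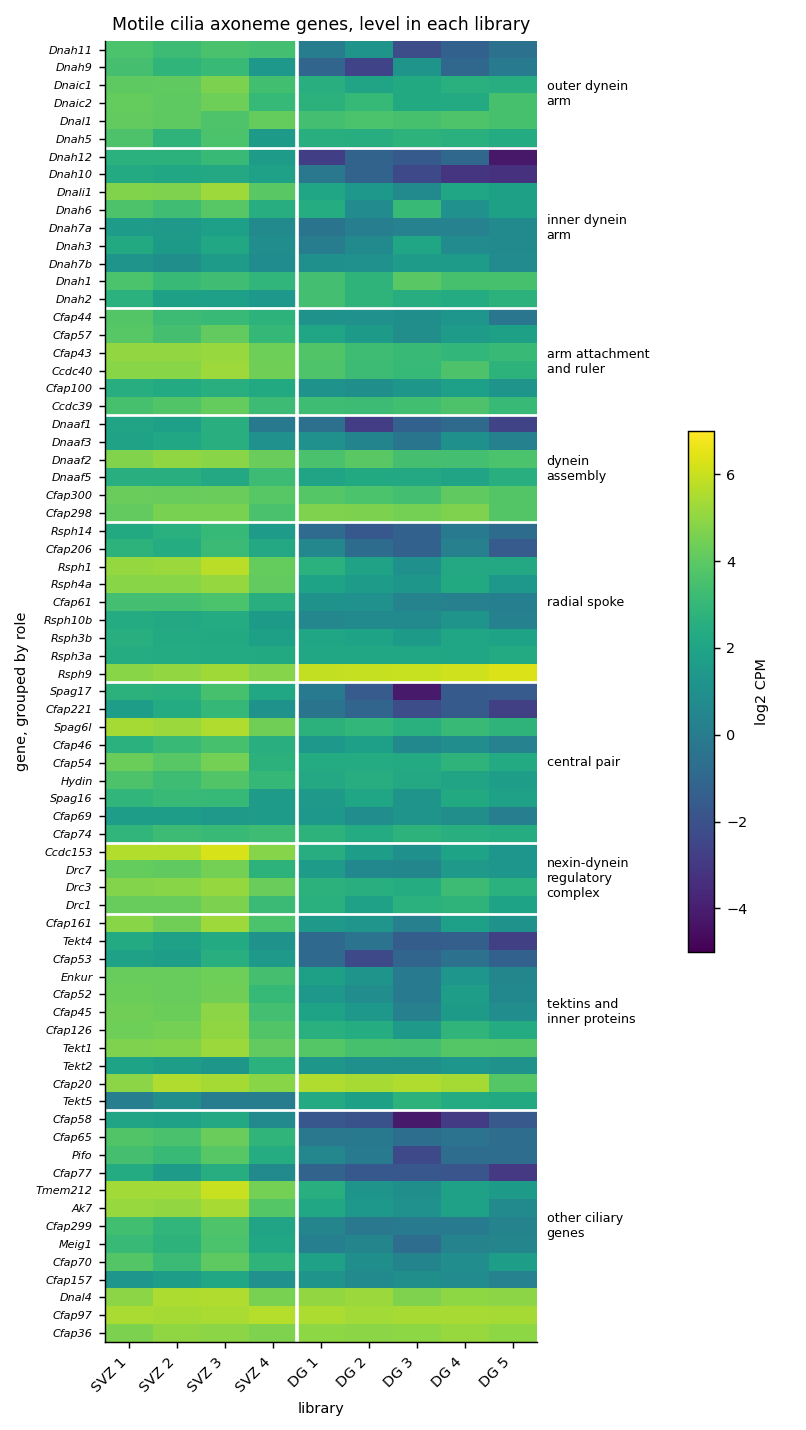
Heat map of the level of each of the 73 axoneme genes (rows, grouped by role, in log2 CPM as coloured) in each library (columns, SVZ left of the white line and DG right of it). Most rows are brighter in the SVZ columns, SVZ 4 is the dimmest SVZ column for most rows, and Rsph9 and Tekt5 are brighter in DG.

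The genes differed in how they entered the table, which holds only genes above 1 CPM in at least 3 libraries. Of the 73 genes, 57 exceeded 1 CPM in at least 3 libraries of each tissue. The other 16 did so in SVZ alone, so these had to be lower in DG and carry no weight as a count. They were Dnah9, Dnah10, Dnah11, Dnah12, Dnaaf1, Rsph14, Cfap206, Spag17, Cfap221, Tekt4, Cfap53, Cfap58, Cfap65, Cfap77, Cfap299 and Pifo. The p-values and lack of overlap of these 16 carry no weight either, because the filter set their direction. Among the 57, 41 were higher in SVZ, 3 were higher in DG and 13 did not pass the test, with a median of -1.28. Of these, 34 differed at least 2-fold and 9 at least 8-fold towards SVZ, and for 34 every DG library lay below every SVZ library. The 16 had a median of -3.67, and 15 of them made up the rest of the 24 genes at 8-fold. Summed over all 73 genes, the level was 450 to 526 CPM in the DG libraries and 722 to 1410 CPM in the SVZ libraries, so the ranges did not overlap.

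Markers of other cell types moved with the tissue. For scale, 33.7% of all genes were called higher in SVZ and 32.9% higher in DG. The ependymal list, 25 measured genes outside the symbol rule, had 17 genes higher in SVZ and 3 in DG (median -1.25). Its summed level was 4808.9 to 8331 CPM in DG and 11697 to 14503 CPM in SVZ. The only gene of this list with 0 reads in a library was Ak9, in DG 5. The list includes the tubulin genes Tuba1a and Tubb4b, and Cd24a, which is on the neuroblast list too. Its sum is therefore not a level of ependymal cells alone. Endothelial genes were higher in DG for 14 of 14 (summed level 1242 to 2377 CPM in DG, 13.0 to 70.7 CPM in SVZ), and genes of pericytes and smooth muscle for 13 of 13 (5692 to 11682 CPM and 75.2 to 188 CPM). Neuroblast genes were higher in SVZ for 10 of 10 (5449 to 8501 CPM in DG, 21389 to 25583 CPM in SVZ), and genes of dividing cells for 12 of 12 (922 to 1479 CPM and 4026 to 4629 CPM). Their part in the axoneme result was not tested, and in such bulk samples fewer cells of a type and less RNA per cell cannot be told apart.

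Promoters of the axoneme genes are shown because the members moved together and because RFX factors, which bind X-box motifs, are known regulators of ciliary genes. One arm of the X-box, spelled GTTGCC and searched on both strands, was looked for in RefSeq windows of 300 bases (GRCm38.p6, 250 before to 50 after a start). The windows matched 62 of the 73 genes. It stood in the windows of 26 of the 62 genes (41.9%), compared with 15.2% of all measured genes that matched and 14.1% of all genes of the promoter table. Among members higher in SVZ it was present in 21 of 48 genes (43.8%), and among members that were not called or were higher in DG in 5 of 14 (35.7%). A FOXJ1-type motif, TGTTTAC on either strand, was present in 3 of 62 genes (4.84%). It was present in 3.21% of all measured genes that matched and in 4.05% of all genes of the promoter table. A match describes the letters of the window and is not a binding site.

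Shown with the X-box arm in capitals are the promoters of the 3 members with such an arm and the greatest differences, 5′ to 3′ on the strand of the gene. Positions count from the RefSeq start as 0. Dnah10 had X-box arms at -20 and at 10, Cfap58 at -59 and Ccdc153 at -152.
Dnah10, chr5:124724835-124725134, plus strand: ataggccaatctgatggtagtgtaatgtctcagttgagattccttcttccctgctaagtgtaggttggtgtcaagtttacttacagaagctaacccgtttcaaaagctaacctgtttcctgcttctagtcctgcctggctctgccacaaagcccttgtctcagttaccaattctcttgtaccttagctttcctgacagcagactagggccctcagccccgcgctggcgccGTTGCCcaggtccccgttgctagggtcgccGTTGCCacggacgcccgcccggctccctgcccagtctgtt
Cfap58, chr19:47937462-47937761, plus strand: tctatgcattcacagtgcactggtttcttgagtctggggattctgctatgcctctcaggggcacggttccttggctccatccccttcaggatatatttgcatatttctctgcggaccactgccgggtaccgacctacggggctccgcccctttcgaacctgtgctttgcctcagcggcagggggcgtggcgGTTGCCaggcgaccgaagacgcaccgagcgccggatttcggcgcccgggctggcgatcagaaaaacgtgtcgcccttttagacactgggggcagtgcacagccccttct
Ccdc153, chr9:44240427-44240726, plus strand: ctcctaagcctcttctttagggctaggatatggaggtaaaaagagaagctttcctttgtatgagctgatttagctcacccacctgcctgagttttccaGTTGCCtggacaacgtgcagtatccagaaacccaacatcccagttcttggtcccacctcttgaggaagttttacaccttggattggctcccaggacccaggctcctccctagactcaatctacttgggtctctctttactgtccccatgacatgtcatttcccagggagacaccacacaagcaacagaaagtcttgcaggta

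The full palindromic X-box, in which a second arm faces the first, stood in the windows of 2 of the 62 matched members (3.23%), Pifo and Cfap298. It was present in 0.692% of all measured genes that matched and in 0.529% of all genes of the promoter table. They are shown with flanks of the same length and the palindrome in capitals, because the tissues differed for one of these genes and not detectably for the other. Pifo, a gene required for cilium disassembly, was higher in SVZ by 3.89 on the log2 scale, and its palindrome lay at -20. That position counts from a downstream start of Pifo (window chr3:106001448-106001747), and the window of its upstream start had no X-box arm. Cfap298 differed by 0.24 and was not called, and its palindrome lay at -188.
Pifo, chr3:106001498-106001523, minus strand: ggttccGTTCCCTTGGCAACgtagta
Cfap298, chr16:90935018-90935043, minus strand: gttttgGTTGCCCGGGCAACagctac

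Outer dynein arms, the motors that set the beat frequency, were represented by 6 genes, of which 5 were higher in SVZ and 1 was not called (median -1.37). Beside this and each role below, 33.7% of all genes were called higher in SVZ and 32.9% higher in DG. The heavy chain gene Dnah11 (chr12:117877982-118199043 in mm10) had 0.06, 1.23, -2.18, -1.27 and -0.55 log2 CPM in DG 1 to DG 5 and 3.60, 3.22, 3.54 and 3.40 in SVZ 1 to SVZ 4. All SVZ libraries lay above all DG libraries, with a difference of -3.99 ± 0.56 (SE) and adjusted p = 7.89e-05. Of its exon bases, 642 overlap Cdca7l, a gene at a mean of 2.81 log2 CPM in DG and 4.83 in SVZ that was also higher in SVZ (-2.02). How reads in the overlap were counted is not known, and its part in the Dnah11 result was not tested. Dnah11 was 1 of 2 outer arm genes for which SVZ 4 was not the lowest SVZ library, the other being Dnal1.

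Dnah9, a second outer arm heavy chain gene, had -1.07, -2.57, 1.21, -0.93 and 0.00 log2 CPM in DG and 3.46, 2.85, 3.08 and 1.40 in SVZ. DG 3 nearly reached SVZ 4, and the tissues differed by -3.37 ± 0.68 (adjusted p = 0.00104). The intermediate chain genes Dnaic1 and Dnaic2 were higher in SVZ by 1.62 and 1.11 log2 units. Dnaic2 ran from 2.27 to 3.52 in DG and from 3.03 to 4.34 in SVZ, so that its groups overlapped. Dnal1, a light chain gene, had the smallest difference of the called outer arm genes, at 3.40 to 3.68 in DG and 3.70 to 4.15 in SVZ (-0.45 ± 0.14, adjusted p = 0.0136).

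Dnah5, the heavy chain gene most often linked to primary ciliary dyskinesia, was not called. Its DG values were 2.51, 2.47, 2.76, 2.63 and 2.37 log2 CPM, and its SVZ values 3.66, 2.79, 3.58 and 1.53. SVZ 1 to SVZ 3 lay above all DG libraries and SVZ 4 lay below them all, which gave a difference of -0.34 ± 0.38 (adjusted p = 0.435). Without SVZ 4 the difference was -0.80 and passed the test (adjusted p = 0.00994).

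Among 9 inner dynein arm genes, whose products shape the bend of the cilium, 5 were higher in SVZ, 1 was higher in DG and 3 were not called (median -1.19). Dnah12 (chr14:26693274-26891703), a single-headed heavy chain gene, had the largest fitted difference of the 73 genes, from few DG reads. It stood at -2.76, -1.16, -1.59, -0.93 and -4.23 log2 CPM in DG 1 to DG 5, the last from 1 read, and at 2.67, 2.72, 3.09 and 1.59 in SVZ 1 to SVZ 4. The groups were far apart (-4.65 ± 0.64, adjusted p = 7.02e-05). Its rank depended on the low counts: without DG 5 its difference was -4.13, below that of Spag17 (-4.62), and with log2(CPM + 1) it was -2.43, where Ccdc153 was at -3.53. Dnah10, whose promoter is printed above, had -0.21, -1.16, -2.37, -3.17 and -3.30 in DG and 2.34, 2.18, 2.26 and 1.88 in SVZ. SVZ varied little for this gene and DG widely, and the difference was -4.21 ± 0.59 (adjusted p = 8.17e-05). Both genes exceeded 1 CPM in SVZ alone.

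Dnali1, the light intermediate chain gene of the inner arms, was well detected in both tissues, with 0.67 to 2.12 log2 CPM in DG and 4.74, 4.67, 5.22 and 3.92 in SVZ. It was 8.14-fold higher in SVZ (adjusted p = 1.28e-05). Dnah2 (chr11:69420809-69549110), the partner of Dnah10 in the double-headed inner arm, was higher in DG. It had 3.40, 2.82, 2.49, 2.40 and 2.70 in DG and 2.65, 1.81, 1.76 and 1.38 in SVZ, with SVZ 1 inside the DG range. The difference of 0.86 ± 0.28 (adjusted p = 0.0197) did not pass the test without SVZ 4 (0.69, adjusted p = 0.0575), nor with libraries centred on their medians (0.67, adjusted p = 0.0511). Dnah1 was not called, at 2.79 to 3.91 in DG and 2.88 to 3.62 in SVZ (0.20 ± 0.23, adjusted p = 0.464).

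Dnah3 and Dnah7b, further single-headed heavy chain genes, were not called either. Dnah3 had 0.10, 0.69, 2.09, 0.79 and 0.71 log2 CPM in DG and 2.27, 1.53, 2.13 and 0.91 in SVZ (-0.83 ± 0.41, adjusted p = 0.0925), with DG 3 at the level of SVZ. It passed the test without DG 3 (adjusted p = 0.0125) and without SVZ 4 (adjusted p = 0.0379). Of its exon bases, 1506 overlap Lyrm1, which had means of 3.19 in DG and 2.97 in SVZ and was not called. Dnah7b differed by 0.06 ± 0.27 (adjusted p = 0.846), with a sign that turned under median centring (-0.12). It shares 30.05% of its exonic 50-base windows with other genes, and its copy Dnah7a, which shares 38.6%, was higher in SVZ (-1.19). Reads of such copies can be split between them by the counting, so the values of both are uncertain.

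Genes for the attachment of the arms to the doublet, and for the ruler that sets their spacing, were higher in SVZ for 5 of 6 (median -1.62). Cfap44 had 1.16, 1.08, 0.98, 1.29 and -0.27 log2 CPM in DG and 3.79, 3.23, 3.15 and 2.76 in SVZ. DG 5 stood below the other DG libraries, and all DG libraries lay below SVZ (-2.39 ± 0.34, adjusted p = 8.46e-05). Its partner in the tether of the inner arms, Cfap43, was among the better detected members, at 2.97 to 3.72 in DG and 5.04, 5.03, 5.15 and 4.37 in SVZ (-1.66 ± 0.20, adjusted p = 2.75e-05). Cfap57 differed by -1.99 in the same direction.

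Ccdc39 and Ccdc40 encode the coiled coils that together form the ruler, and here their levels differed in pattern. Ccdc40 had 3.70, 3.21, 3.05, 3.67 and 2.78 log2 CPM in DG and 4.86, 4.88, 5.25 and 4.41 in SVZ, without overlap (-1.57 ± 0.23, adjusted p = 0.000105). Ccdc39 had 3.26, 3.21, 3.39, 3.65 and 3.07 in DG and 3.51, 3.72, 4.18 and 3.24 in SVZ, with overlap (-0.35 ± 0.20, adjusted p = 0.145). It was called without SVZ 4 (-0.49, adjusted p = 0.0477) and with median centring (adjusted p = 0.0373). The difference between the pair was not tested. Of the exon bases of Ccdc39, 1256 overlap Ttc14, which had means of 3.68 in DG and 4.10 in SVZ and was not called.

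Dynein assembly factors, which act in the cytoplasm, numbered 6, of which 4 were higher in SVZ and 2 were not called (median -0.78). Dnaaf1 had -0.55, -2.83, -1.27, -0.86 and -2.52 log2 CPM in DG and 1.99, 1.77, 2.50 and -0.17 in SVZ. SVZ 4 stood nearer to DG 1 than to the other SVZ libraries, and the difference was -3.13 ± 0.63 (adjusted p = 0.00103). Of its exon bases, 584 overlap Taf1c, which had means of 2.99 in DG and 3.44 in SVZ and was not called. Dnaaf3 differed by -1.44 and Dnaaf2 by -1.12, the latter at 3.41 to 3.92 in DG and 4.24 to 5.01 in SVZ. Dnaaf2 shares 68.1% of its exonic windows with other annotated genes, among them 9330151L19Rik on the opposite strand, and no such partner has a row of its own.

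Dnaaf5 was not called, at 2.00 to 2.53 log2 CPM in DG and 2.53, 2.57, 2.25 and 3.24 in SVZ (-0.43 ± 0.22, adjusted p = 0.108), and unlike most members it was highest in SVZ 4. With median centring it passed the test (adjusted p = 0.0269). Cfap298 had 4.67, 4.64, 4.49, 4.67 and 3.77 in DG and 4.13, 4.58, 4.60 and 3.54 in SVZ (0.24 ± 0.25, adjusted p = 0.422). One library of each tissue, DG 5 and SVZ 4, stood below the others for this gene, and 36.0% of its exonic windows are shared with other genes.

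Radial spokes carry signals from the central pair to the arms, and 6 of 9 spoke genes were higher in SVZ, with 1 higher in DG and 2 not called (median -2.65). Rsph14 and Cfap206, which encode spoke proteins, differed by -3.29 ± 0.39 and -3.22 ± 0.44. Rsph1, a spoke head gene, had 2.66, 1.92, 1.02, 2.26 and 2.25 log2 CPM in DG and 5.11, 5.18, 5.76 and 4.18 in SVZ, without overlap, and was 8.20-fold higher in SVZ (adjusted p = 2.21e-05).

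Rsph9 (chr17:46122035-46144216), another gene of the spoke head, went the other way. It had 5.91, 5.93, 6.002, 6.12 and 6.35 log2 CPM in DG and 4.88, 5.04, 5.28 and 4.80 in SVZ. No SVZ library reached the lowest DG library, and the difference of 1.06 ± 0.13 (adjusted p = 3.26e-05) was called under every alternative that was run. No exonic base of Rsph9 overlaps another annotated gene. Per kilobase of exon it was the most abundant member in DG, at 42.0 CPM per kilobase, followed by Cfap298 at 14.1, while in SVZ it stood at 20.1, behind Tmem212 at 58.2, Rsph1 at 26.0 and Ccdc153 at 25.1.

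Rsph3a and Rsph3b, near-identical genes of the spoke stalk on chromosome 17, were not called. Rsph3a had 2.05 to 2.35 log2 CPM in DG and 2.27 to 2.42 in SVZ (-0.17 ± 0.16, adjusted p = 0.354). Rsph3b had 1.53 to 2.11 in DG and 1.82 to 2.52 in SVZ (-0.31 ± 0.21, adjusted p = 0.206). They share 58.1% and 69.2% of their exonic windows with other genes, mostly with each other, so the split of reads between them is uncertain.

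All 9 central pair genes were higher in SVZ (median -1.38). Spag17 (chr3:99885406-100143322), a large scaffold of the central pair, had -0.12, -1.58, -4.15, -1.60 and -1.54 log2 CPM in DG, DG 3 having 1 read, and 2.71, 2.59, 3.52 and 2.21 in SVZ. Its difference of -4.55 ± 0.66 (adjusted p = 0.0001) rests on few DG reads and was -2.54 with log2(CPM + 1). Of its exonic bases, 820 overlap Wdr3, a gene at 6.22 in DG and 6.73 in SVZ that was higher in SVZ by 0.51. Cfap221 differed by -3.65 ± 0.52. Spag6l, which encodes an armadillo-repeat protein of the central pair, was the best detected of the group, with 2.72, 2.96, 2.60, 3.10 and 2.80 in DG and 5.39, 5.21, 5.59 and 4.38 in SVZ (-2.31 ± 0.23, adjusted p = 5.98e-06). The DG libraries were close together for Spag6l, and SVZ 4 stood below the other SVZ libraries. Cfap54 had 2.32 to 2.80 in DG and 4.30, 3.86, 4.47 and 2.70 in SVZ (-1.38 ± 0.32, adjusted p = 0.00252). For that gene SVZ 4 lay inside the DG range and the other SVZ libraries lay above it.

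The 4 measured genes of the nexin-dynein regulatory complex, the link between neighbouring doublets, were all higher in SVZ (median -2.40), and none overlapped between tissues. Every DG library lay below every SVZ library for 28.3% of all genes. Ccdc153 (chr9:44240676-44247306) had 2.48, 1.67, 1.02, 1.95 and 1.33 log2 CPM in DG and 5.64, 5.61, 6.27 and 4.83 in SVZ (-3.90 ± 0.33, adjusted p = 1.77e-06). Its lowest SVZ library was well above its highest DG library. Drc7 had 0.49 to 1.61 in DG and 4.15, 4.05, 4.49 and 2.76 in SVZ (-2.77 ± 0.37). Drc3 had 2.43 to 3.24 in DG and 4.79, 4.86, 5.11 and 4.25 in SVZ (-2.03 ± 0.21).

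Tektins and other proteins inside the doublets stabilise the wall of the axoneme. Of these 11 genes, 9 were higher in SVZ, 1 was higher in DG and 1 was not called (median -3.08). Cfap161 had 1.44, 1.26, 0.21, 1.76 and 1.12 log2 CPM in DG and 4.85, 4.38, 5.23 and 3.61 in SVZ (-3.36 ± 0.37, adjusted p = 1.2e-05). Tekt4 differed by -3.30 ± 0.46 and Cfap53 by -3.11 ± 0.39, both from DG levels below 1 CPM. Tekt1, by contrast, was clearly present in DG, at 3.41 to 3.82, and stood at 4.69, 4.74, 5.18 and 4.14 in SVZ (-1.01 ± 0.20, adjusted p = 0.000869).

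Tekt5 (chr16:10357948-10395490), a tektin best known from the sperm flagellum, had the largest difference towards DG. Its values were 2.32, 1.81, 2.74, 2.38 and 2.30 log2 CPM in DG and 0.13, 0.92, 0.10 and 0.02 in SVZ. The groups did not overlap, SVZ 2 stood above the other SVZ libraries, and the gene was 4.05-fold higher in DG (2.02 ± 0.27, adjusted p = 5.13e-05). None of its exonic 50-base windows is found in another gene. Cfap20, which lies inside the doublet and is also found at basal bodies, had 5.57, 5.42, 5.58, 5.37 and 3.85 in DG and 4.91, 5.58, 5.40 and 4.89 in SVZ. DG 5 stood far below the other DG libraries, SVZ 1 and SVZ 4 lay between them, and the difference of -0.04 ± 0.33 (adjusted p = 0.923) became 0.29 without DG 5 (adjusted p = 0.147) and 0.016 with TMM scaling.

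**Figure D2:**
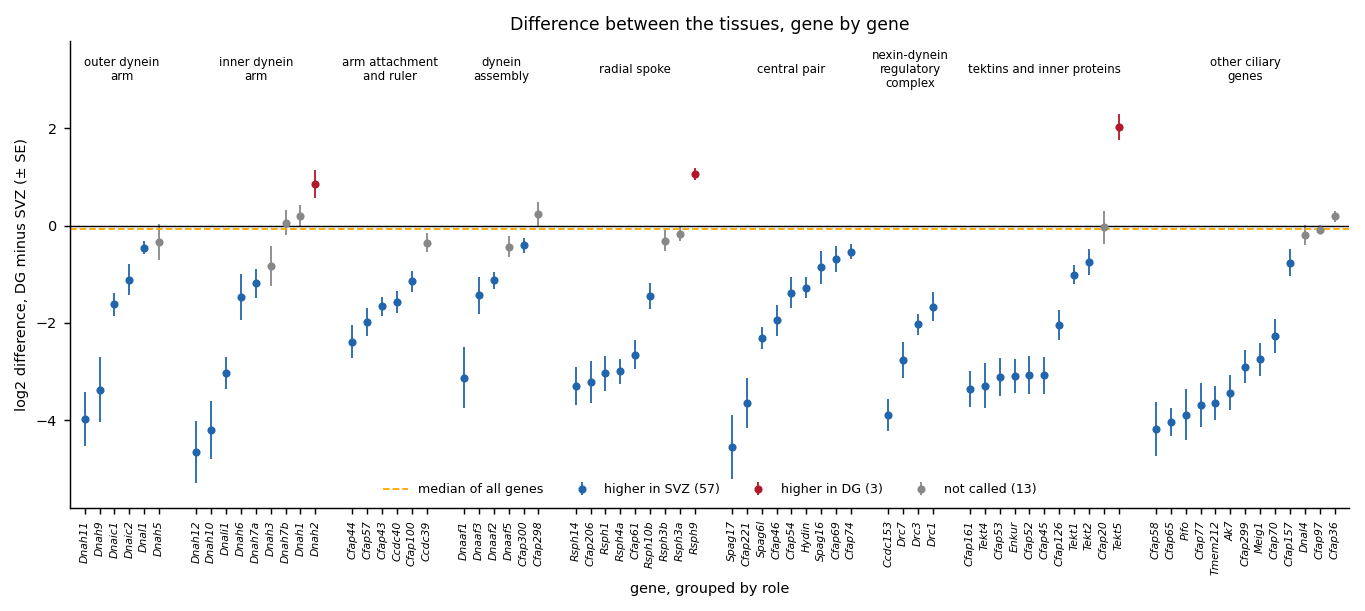
Difference between the tissues for each of the 73 genes, as log2 CPM in DG minus SVZ with its standard error (vertical axis), grouped by role along the horizontal axis; the dashed line marks the median of all genes at -0.075. Blue points are the 57 genes higher in SVZ, red points the 3 higher in DG and grey points the 13 not called, whose signs turned under other settings for Dnah7b and Cfap20.

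Of the remaining 13 ciliary genes, which were not sorted into a role here, 10 were higher in SVZ and 3 were not called (median -2.90). That sorting does not mean that these genes have no place in the axoneme. Cfap58, whose promoter is printed above, had -1.75, -1.99, -4.15, -2.85 and -1.64 log2 CPM in DG and 2.02, 1.87, 2.24 and 0.68 in SVZ (-4.18 ± 0.55, adjusted p = 5.26e-05). DG 3 had 1 read of it. Cfap65, a gene needed for sperm flagella, had -0.21, -0.16, -0.66, -0.43 and -0.71 in DG and 3.73, 3.55, 4.27 and 2.85 in SVZ. Its DG libraries were close together, its groups lay far apart, and its adjusted p of 5.34e-07 was the smallest of the members (-4.04 ± 0.29). Like Cfap58 and Pifo, however, Cfap65 exceeded 1 CPM in at least 3 libraries of SVZ alone, so the filter set its direction. Pifo had 0.54, -0.08, -2.37, -0.72 and -0.71 in DG and 3.46, 3.08, 3.90 and 2.44 in SVZ, without overlap.

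The 3 genes of this group that were not called, Dnal4, Cfap97 and Cfap36, were among the most evenly expressed members. Dnal4 ran from 4.69 to 5.18 log2 CPM in DG and from 4.58 to 5.56 in SVZ (-0.19 ± 0.20, adjusted p = 0.413). Cfap97 ran from 5.35 to 5.51 in DG and from 5.40 to 5.66 in SVZ (-0.08 ± 0.09, adjusted p = 0.435), and it passed the test with median centring (-0.27, adjusted p = 0.0316). Cfap36, whose product binds the small GTPase ARL3, ran from 4.93 to 5.16 in DG and from 4.61 to 5.00 in SVZ (0.19 ± 0.12, adjusted p = 0.164). A p that misses the threshold does not show that these levels were the same.

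For 6 genes near the threshold, picked out after their values were seen, the call did not hold when single libraries were left out. Cfap69 (-0.69, adjusted p = 0.0416) was lost without any 1 of DG 2, DG 4, DG 5 or SVZ 1 to SVZ 4 (-0.75 to -0.50, adjusted p from 0.0544 to 0.0888), and Cfap300, an assembly factor (-0.41, adjusted p = 0.0407), without any 1 of DG 1, DG 2, DG 3, DG 5 or SVZ 1 to SVZ 3 (-0.43 to -0.33, adjusted p from 0.0517 to 0.0987). Spag16, of the central pair (-0.86, adjusted p = 0.0446), was lost without any 1 of DG 1, DG 3, DG 5 or SVZ 1 to SVZ 3 (-0.88 to -0.71, adjusted p from 0.0628 to 0.121). Cfap157 (-0.76, adjusted p = 0.034) was lost without any 1 of DG 2, DG 4, DG 5, SVZ 2 or SVZ 3 (-0.76 to -0.56, adjusted p from 0.0579 to 0.111). Tekt2 (-0.75, adjusted p = 0.0268) was lost without DG 2, SVZ 1 or SVZ 4 (-0.74 to -0.51, adjusted p from 0.0511 to 0.0708), and Dnah6, of the inner arms (-1.47, adjusted p = 0.016), without SVZ 3 (-1.28, adjusted p = 0.0511). Each kept the SVZ mean higher.

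The SVZ libraries themselves differed in the level of the set. SVZ 4 was the lowest SVZ library for 65 of 73 genes (89.0%), against 28.4% of all genes, and SVZ 3 was the highest for 50 (68.5%), against 20.1%. The mean over the 73 genes was 3.49, 3.40, 3.74 and 2.76 log2 CPM in SVZ 1 to SVZ 4 and 1.78, 1.46, 1.23, 1.63 and 1.28 in DG 1 to DG 5. SVZ 4 thus lay nearer to SVZ 2 than to DG 1, while its median deviation from the mean of the other SVZ libraries was -0.84 for the 73 genes and 0.047 for all genes. In SVZ 4 the deviation was -0.89 for the ependymal list, -0.72 for other motile cilium genes and -0.50 for the choroid plexus list. It was 0.038 for the multiciliation list, 0.028 for intraflagellar transport genes, 0.25 for neuroblast genes and -0.064 for genes of dividing cells. Endothelial and pericyte genes deviated by -0.67 each, from low levels and beside a higher SVZ 1. Leaving SVZ 4 out moved the median difference of the set from -1.66 to -1.96, the greatest shift that leaving out a library gave.

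**Figure D3:**
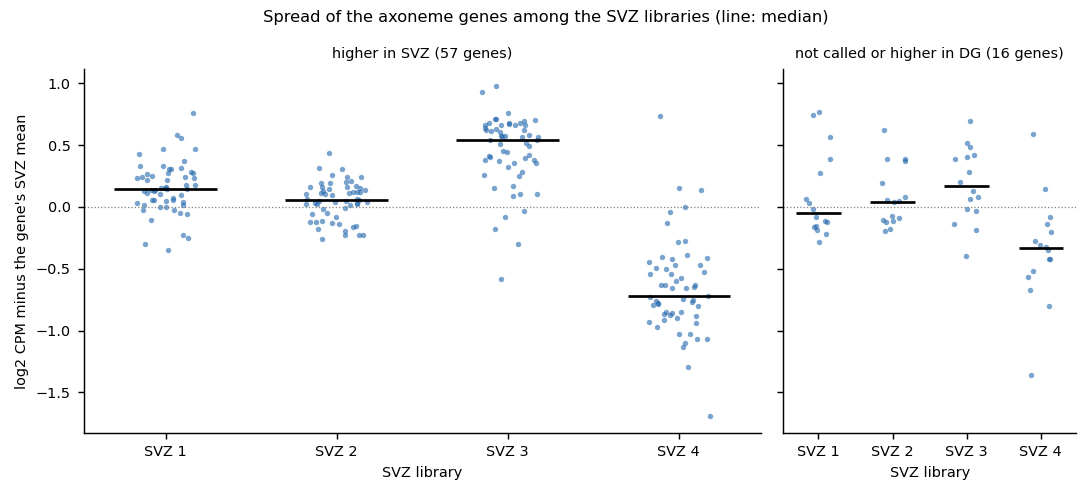
Deviation of each axoneme gene from its own SVZ mean (vertical axis, log2 CPM) in the 4 SVZ libraries, for the 57 genes higher in SVZ (left) and the other 16 genes (right); each point is a gene and each line a median. Points of SVZ 4 lie mostly below 0 and points of SVZ 3 mostly above it in the left panel, and SVZ 4 was the lowest library for 52 of those 57 genes.

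Across the 73 genes, the gap between SVZ 3 and SVZ 4 went with the difference between the tissues (Pearson r = -0.53, Spearman rho = -0.58, genes not being independent and the SVZ libraries entering both measures). Over the 57 genes above 1 CPM in both tissues r was -0.55, and over all genes it was 0.0031. The mean level of a gene had an r of 0.53 with the tissue difference over the 73 genes and of 0.16 over the same 57 genes. Values of DG and of SVZ enter both of these measures. In DG, the highest library was most often DG 1 (27 of 73 genes) or DG 4 (24), and the lowest most often DG 3 (29) or DG 5 (21).

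Genes of the multiciliation programme, transcription factors among them, were mostly higher in SVZ. Of 27 listed genes 21 were measured, with 16 higher in SVZ, 2 higher in DG and 3 not called (median -0.85). Of all genes, 33.7% were higher in SVZ and 32.9% higher in DG. Gmnc, Mcidas, Ccno, Foxn4, Trp73 and Cdc20b had no row. Foxj1, the master factor of motile cilia, had 0.01, -1.26, -1.18, -1.01 and -1.18 log2 CPM in DG and 2.36, 2.73, 3.22 and 0.59 in SVZ (-3.15 ± 0.50, adjusted p = 0.000207). SVZ 4 was the lowest SVZ library for Foxj1, and the tissues did not overlap. Foxj1 exceeded 1 CPM in at least 3 libraries of SVZ alone, so the filter set that it was lower in DG. Over the whole list SVZ 4 was lowest for 6 of 21 genes (28.6%), beside 28.4% of all genes. Myb, which acts early in multiciliated cells and in dividing progenitors, had 0.60 to 1.25 in DG and 3.90, 3.49, 4.07 and 3.31 in SVZ (-2.68 ± 0.22, adjusted p = 1.67e-06).

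The RFX factors did not follow one pattern. Rfx2 was not called, with 3.05 to 3.48 log2 CPM in DG and 3.84, 3.86, 3.85 and 2.56 in SVZ (-0.23 ± 0.27, adjusted p = 0.464), so that SVZ 4 lay below DG and the other SVZ libraries above it. Rfx3 was slightly higher in SVZ, at 5.95 to 6.51 in DG and 6.24 to 6.74 in SVZ (-0.40 ± 0.14, adjusted p = 0.0277). The 2 list genes higher in DG were Rfx4 (1.74), a factor of neural progenitors and astrocytes, and E2f5 (0.55), which were named after their values were seen.

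Other genes of the motile cilium that the symbol rule leaves out moved as the axoneme genes did. Of 47 measured, 37 were higher in SVZ, 0 were higher in DG and 10 were not called (median -1.40), with a summed level of 287 to 388 CPM in DG and 538 to 833 CPM in SVZ. By limma, 33.7% of all genes were higher in SVZ. Iqca, of the nexin-dynein regulatory complex, had 0.46 to 1.25 log2 CPM in DG and 4.98, 4.83, 5.50 and 3.91 in SVZ (-3.91 ± 0.30, adjusted p = 8.93e-07). Ccdc146 differed by -2.97 and Mns1, a doublet inner protein, by -1.18.

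Transport genes shared with the primary cilium gave a different count. Of 36 intraflagellar transport and BBSome genes, 12 were higher in SVZ, 4 were higher in DG and 20 were not called (median -0.11), shares that lie near or below those of all genes. Their mean was 5.29 to 5.41 log2 CPM in DG and 5.34 to 5.40 in SVZ, so the tissues overlapped in this measure, while the summed level was 1831 to 2018 CPM in DG and 2182.2 to 2229 CPM in SVZ. Bbs2 was higher in DG by 0.79, and Ift140 and Ift46 were higher in SVZ by 0.54 and 0.53. Cytoplasmic dynein and dynactin, the motor that works outside the axoneme, had 13 of 22 genes higher in SVZ and 1 in DG (median -0.47). The shares of all genes were 33.7% and 32.9%. Dynlt3 was higher in DG by 1.26. Differences between these lists and the axoneme genes were not tested.

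**Figure D4:**
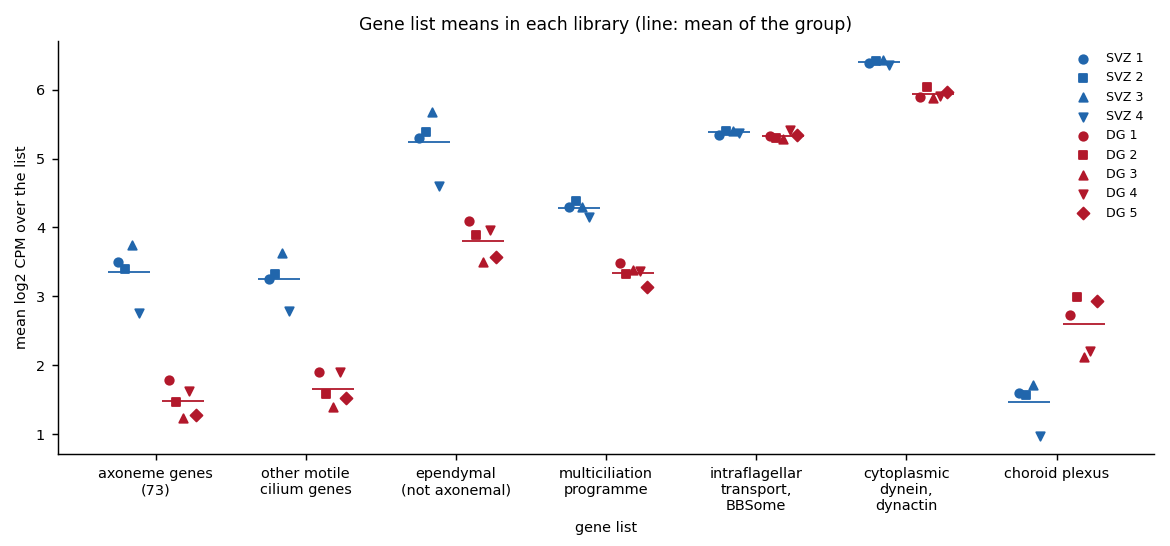
Mean log2 CPM over each gene list (vertical axis) in each library, with SVZ in blue, DG in red and a line at the mean of the group, for the 73 axoneme genes and 6 other lists along the horizontal axis. SVZ 4 is the lowest SVZ point for the axoneme, other motile cilium and ependymal lists, and the SVZ and DG points of intraflagellar transport overlap.

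The ependymal list held both directions. Hdc and Cdhr4 were higher in SVZ: Hdc had 0.06 to 0.81 log2 CPM in DG and 4.08, 4.18, 4.54 and 3.37 in SVZ (-3.64), and Cdhr4 -0.66 to -0.07 in DG and 3.79, 3.68, 4.39 and 2.90 in SVZ (-3.98). Cdhr4 exceeded 1 CPM in SVZ alone, so the filter set its direction. Aqp4, a water channel that astrocytes express too, was higher in DG by 2.22. Genes of the choroid plexus, a further ciliated epithelium of the ventricle, were higher in DG for 7 of 12 and in SVZ for 3 (median 1.39). The shares of all genes were 32.9% for DG and 33.7% for SVZ. The summed level of the choroid plexus genes was 559 to 892 CPM in DG and 191 to 240 CPM in SVZ. Among them Lmx1a had 0 reads in SVZ 2 and SVZ 3, and Cldn2 had 0 reads in SVZ 4. Kl, Kcnj13, Aqp1, Prlr, Kcne2, Slc4a5 and Steap1 had no row. Enpp2 was higher in DG by 2.01. Ttr, named after its values were seen, was not called and varied between 1.46 and 7.48 in DG.

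Sharing of at least 1% of the windows touched a minority of the members. For 44 of the 73 genes, under 1% of the 50-base windows of the exons occur in another annotated gene. Of these, 39 were higher in SVZ (33.7% of all genes), 2 were higher in DG (32.9%) and 3 were not called (median -2.35). The 44 include Cfap53, Cfap58, Cfap77, Cfap206, Cfap221, Dnah10, Dnah12, Pifo, Rsph14 and Tekt4. Those genes exceeded 1 CPM in SVZ alone, so the filter set their direction, and they add to the count and the median.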

How the data were processed

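Cells sorted by Nestin-reporter fluorescence were sequenced in 9 libraries (DG 5, SVZ 4). Per the labels' protocols, poly-dT primed, template-switched cDNA was amplified and sheared, and the library kit does not keep strand. STAR, edgeR and mm10 are named per the submitters' processing notes, whereas versions, gene counter, annotation and filter were not given in the sources used here. Deposited values are in log2 CPM, although the table is described as counts. A prior count of 1 read was inferred from the values: recovered reads were whole for 100% of values (tolerance 0.001). Every gene exceeded 1 CPM in at least 3 libraries. Library totals leave out genes without a row.

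All 14477 genes were tested with limma 3.58.1 under R 4.3.3, using its mean-variance trend, on tissue alone, DG minus SVZ. Benjamini-Hochberg adjusted p under 0.05 was called, and every adjusted p is from this fit or a named alternative. The count test that the design named for raw counts was not used, since the values are log2. Alternatives were TMM scaling, median centring, log2(CPM + 1), voom weights, no trend, a filter on the mean, each library left out, a replicate block, a fold of at least 2, and members without copies or above 1 CPM in both tissues. Named genes were the 3 largest differences and 2 highest means in each role, all members higher in DG or not called, Foxj1, Rfx2, Rfx3, Gmnc, Myb and Trp73, and the 3 smallest adjusted p of each other list. Members and lists were chosen with earlier results of these data known. GENCODE M21 gave symbols, 1-based coordinates and overlaps of exons, and shared sequence from 50-base windows of its transcripts. No library was left out, and no 2 libraries of a tissue agreed within sampling noise.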

Additional observations from a re-analysis of the deposited data

Results flagged for a closer look

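For each gene and tissue, a library was singled out when its gap to the nearest other library was too large a part of the range by Dixon's test. Of 146 groups, 14 met this, and chance alone gives about 1 in 20. In SVZ, 6 of the 7 groups concerned SVZ 4, each time below the other SVZ libraries: Cfap300 at 3.88 log2 CPM, Cfap43 at 4.37, Cfap52 at 3.04, Enkur at 3.47, Rsph10b at 1.55 and Spag16 at 1.58. The seventh was Tekt5, which stood higher in SVZ 2 (0.92) than in the other SVZ libraries.

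In DG, the low values were those of DG 5 for Cfap20 (3.85), Cfap298 (3.77) and Cfap44 (-0.27), and those of DG 3 for Meig1 (-0.72) and Rsph3b (1.53). The high values were those of DG 4 for Cfap36 (5.16) and Cfap54 (2.80).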

How the results depend on the processing

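Median centring moved the median of all genes from -0.075 to -0.26 (6175 genes higher in SVZ and 4152 in DG, against 4873 and 4769), and the count of members was then 61 higher in SVZ and 2 in DG, with a median of -1.85. With only genes at a mean of at least 3 log2 CPM, 25 members were tested, 17 called for SVZ and 1 for DG, with a median of -1.12. The median was -1.97 without genes that have a near-identical copy (55 and 3) and -1.28 for members above 1 CPM in both tissues (41 and 3). Leaving out each library in turn gave 52 to 58 members higher in SVZ, 2 to 3 in DG, and medians from -1.96 (without SVZ 4) to -1.58. With a fold of at least 2 the counts were 50 and 2, and with TMM scaling, log2(CPM + 1), voom weights or no trend 54 to 57 and 3.

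The sign turned for 2 genes that were not called. Dnah7b was at -0.12 with median centring and, with libraries left out, between -0.047 and 0.22, turning without DG 3, DG 4, SVZ 2 (-0.0023) or SVZ 4. Cfap20 was at 0.016 with TMM scaling, between -0.15 and 0.29 with libraries left out, turning without DG 5, SVZ 2 or SVZ 3, and at 0.29 in libraries 1 to 4 with or without a block. The cause was not tested.

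The replicate block, on the libraries numbered 1 to 4, gave 51 members higher in SVZ and 3 in DG (median -1.64), where the same libraries without it, an alternative chosen after seeing the data, gave 53 and 3. Same-numbered libraries did not deviate together (correlation -0.173 to 0.0073 in 4 pairs, and 0 SVZ libraries closest to their own number). The labels do not say what the numbers stand for, and 4 pairs cannot decide whether such libraries share an origin. The main fit therefore used no pairing. Members below about 1 CPM in DG rest on few reads, where the prior count limits the fold.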
